A study of Mus musculus with 12 samples.

Results

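Regions bound by BRD2 and BRD3, 2 proteins of the BET family, were examined at 9 genes of the interferon system in the mouse cell line RAW264.7, which is monocyte-derived and turns into osteoclasts under the cytokine RANKL. They were taken by name: the receptor genes Ifnar1 and Ifnar2, the transcription factor genes Irf1, Irf2, Irf3, Irf5 and Irf8, the oligoadenylate synthetase-like gene Oasl1 and the inhibitor gene Socs1, 9 of 21887 protein-coding genes. A region was counted for a gene when it overlapped, by at least 1 bp, the gene or the 10 kb beyond either of its ends. Under this rule 23 of the 16188 regions in 8 peak lists lay at the 9 genes. Binding had been measured by chromatin immunoprecipitation and sequencing of 50 bp reads after fixation for 15 min in 1% formaldehyde. For each antibody there was 1 list from untreated cells and 1 each from cells given, for 4 h, RANKL at 50 ng/ml, the BET inhibitor I-BET at 500 nM, or both. All groups were the same cell line in the same medium (the source label reads bone marrow), and the 4 input libraries, without peak lists, were not used. With 1 library per antibody and treatment there was no replicate error and no test between treatments, and the depth behind each list is unknown.

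Interferons are cytokines of antiviral defence. Type I interferons bind a receptor made of IFNAR1 and IFNAR2, whose kinases activate STAT proteins that act with interferon regulatory factors (IRFs) at interferon-stimulated genes. Those genes carry DNA elements called ISRE and GAS. SOCS1 shuts the kinases off. In the osteoclast lineage IRF8 is known as a brake on differentiation, and BET proteins, which read acetylated histones through bromodomains that I-BET occupies, are known cofactors at inflammatory and interferon-response promoters.

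Bases from the 250 bp before the transcript start are shown for the genes whose start was in a called region. For contrast, those of Irf1 and Irf8, which had no region, are shown too. Irf3 is left out because its window runs through records of a neighbouring gene. The sequences are from RefSeq (GRCm38.p6), which held all 9 genes. Each runs 5′ to 3′ on the gene's strand, stops before any annotated gene record, and has matches to the searched motifs in capitals. At Oasl1 and Ifnar1 the gene record begins before the start used here (114923240 and 91485215), so these 2 lines end short of it. The positions, in the order of the lines, are chr16:10785537-10785786 (minus strand), chr8:46739495-46739744, chr5:114922990-114923142, chr16:91484965-91485031, chr11:53769764-53770013 and chr8:120736108-120736357 (all plus).
Socs1: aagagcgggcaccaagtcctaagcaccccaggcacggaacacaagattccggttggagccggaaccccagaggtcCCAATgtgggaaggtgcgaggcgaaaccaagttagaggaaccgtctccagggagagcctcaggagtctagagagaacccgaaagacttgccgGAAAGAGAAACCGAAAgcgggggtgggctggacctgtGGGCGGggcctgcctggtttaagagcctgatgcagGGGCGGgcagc
Irf2: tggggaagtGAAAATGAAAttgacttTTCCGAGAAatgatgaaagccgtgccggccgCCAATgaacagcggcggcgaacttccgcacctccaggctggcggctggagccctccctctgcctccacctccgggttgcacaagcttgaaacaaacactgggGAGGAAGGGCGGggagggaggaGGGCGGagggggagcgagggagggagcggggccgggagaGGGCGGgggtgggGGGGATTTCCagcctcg
Oasl1: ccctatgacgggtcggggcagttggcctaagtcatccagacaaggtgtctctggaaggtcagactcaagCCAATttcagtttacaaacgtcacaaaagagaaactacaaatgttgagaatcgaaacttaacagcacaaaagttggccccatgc
Ifnar1: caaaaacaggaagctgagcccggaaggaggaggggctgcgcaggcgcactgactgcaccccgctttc
Irf1: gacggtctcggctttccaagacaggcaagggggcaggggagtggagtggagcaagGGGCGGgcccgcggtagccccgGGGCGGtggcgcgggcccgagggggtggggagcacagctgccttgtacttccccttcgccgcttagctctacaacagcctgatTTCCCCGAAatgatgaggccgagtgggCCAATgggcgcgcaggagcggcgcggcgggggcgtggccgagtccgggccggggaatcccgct
Irf8: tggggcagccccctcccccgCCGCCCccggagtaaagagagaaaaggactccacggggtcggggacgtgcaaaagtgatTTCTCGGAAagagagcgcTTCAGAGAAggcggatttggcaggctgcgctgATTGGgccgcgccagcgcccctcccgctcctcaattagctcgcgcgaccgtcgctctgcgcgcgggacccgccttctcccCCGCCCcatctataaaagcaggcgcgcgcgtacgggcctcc

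Motifs were searched as exact letters on both strands in the 300 bp from 250 before to 50 after each start. The ISRE core was taken as GAAA, any 2 bases and a further GAAA, and the GAS element as TTCNNNGAA. For AP-1 the letters were TGANTCA, for the E-box they were CACGTG, and for the cyclic AMP element TGACGTCA. The ETS or PU.1 core was searched as GAGGAAG. The GC box was searched as GGGCGG, and the box named CCAAT by its own letters. The kappa-B motif was taken as GGG, any 2 bases and then TTTCC. Socs1 held 2 ISRE cores, at -83 to -74 and -77 to -68 from the start, which overlap each other and lay inside the BRD3 region of all 4 treatments. An ISRE core is present in 3.44% of all 32851 promoter windows of the table. Irf2 also held 1, at -241 to -232, together with a GAS match at -224 to -216, an ETS or PU.1 core at -91 to -85 that shares a base with a GC box, and a kappa-B match at -17 to -8. Of all Irf2 matches, GC and CCAAT boxes included, only the kappa-B match lay wholly in a called region, that of BRD3 in untreated cells. GAS letters occur in 8.3% of windows and kappa-B letters in 1.63%. Irf1 had a GAS match at -90 to -82 and Irf8 had 2, at -171 to -163 and -153 to -145, and Ifnar2 had 1 at -214 to -206, all outside any region. Ifnar1 had a GAS match at -5 to 4, across the start and so beyond the bases shown, which lay inside its BRD3 regions of 3 treatments (RANKL, I-BET and both). The Oasl1 window held none of the searched motifs other than CCAAT, whose letters are in 37.4% of windows.

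The receptor genes each had regions from 1 antibody, BRD3 for Ifnar1 and BRD2 for Ifnar2. Ifnar1 (chromosome 16, 91485032 to 91510523) encodes the subunit that carries the kinase TYK2. BRD3 regions lay over its start in 3 treatments, 622 bp wide under RANKL, 661 bp under I-BET and 607 bp with both, with a shared stretch of 554 bp. Untreated cells had none, and their nearest BRD3 region was 178 kb away. By the authors' score the region stood at the 8.0th percentile of its list under RANKL, the 23.3rd under I-BET and the 89.2nd with both. No label or file header used here says what the score measures, so it serves only to rank regions within a list. No BRD2 list had a region at Ifnar1.

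Ifnar2 (chromosome 16, 91372783 to 91405589), the subunit with the longer signalling tail, lies 79.4 kb before Ifnar1. It had 1 region, BRD2 under RANKL, at 91372819 to 91374207 (1389 bp), which began just inside the gene. Its score was low in that list, at the 3.4th percentile. No other BRD2 list and no BRD3 list had a region at Ifnar2. Just outside the 10 kb limit, RANKL lists of both antibodies held wide regions between genes at this locus. BRD2 (2589 bp) and BRD3 (2433 bp) regions lay 16980 bp and 16900 bp upstream of Ifnar2, and a BRD3 region of 2894 bp lay 11.2 kb downstream of Ifnar1. The 3 lists of each antibody without RANKL alone held no region at those places. The BRD3 list with both agents had a region of 501 bp 23.9 kb downstream of Ifnar1.

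**Figure D1:**
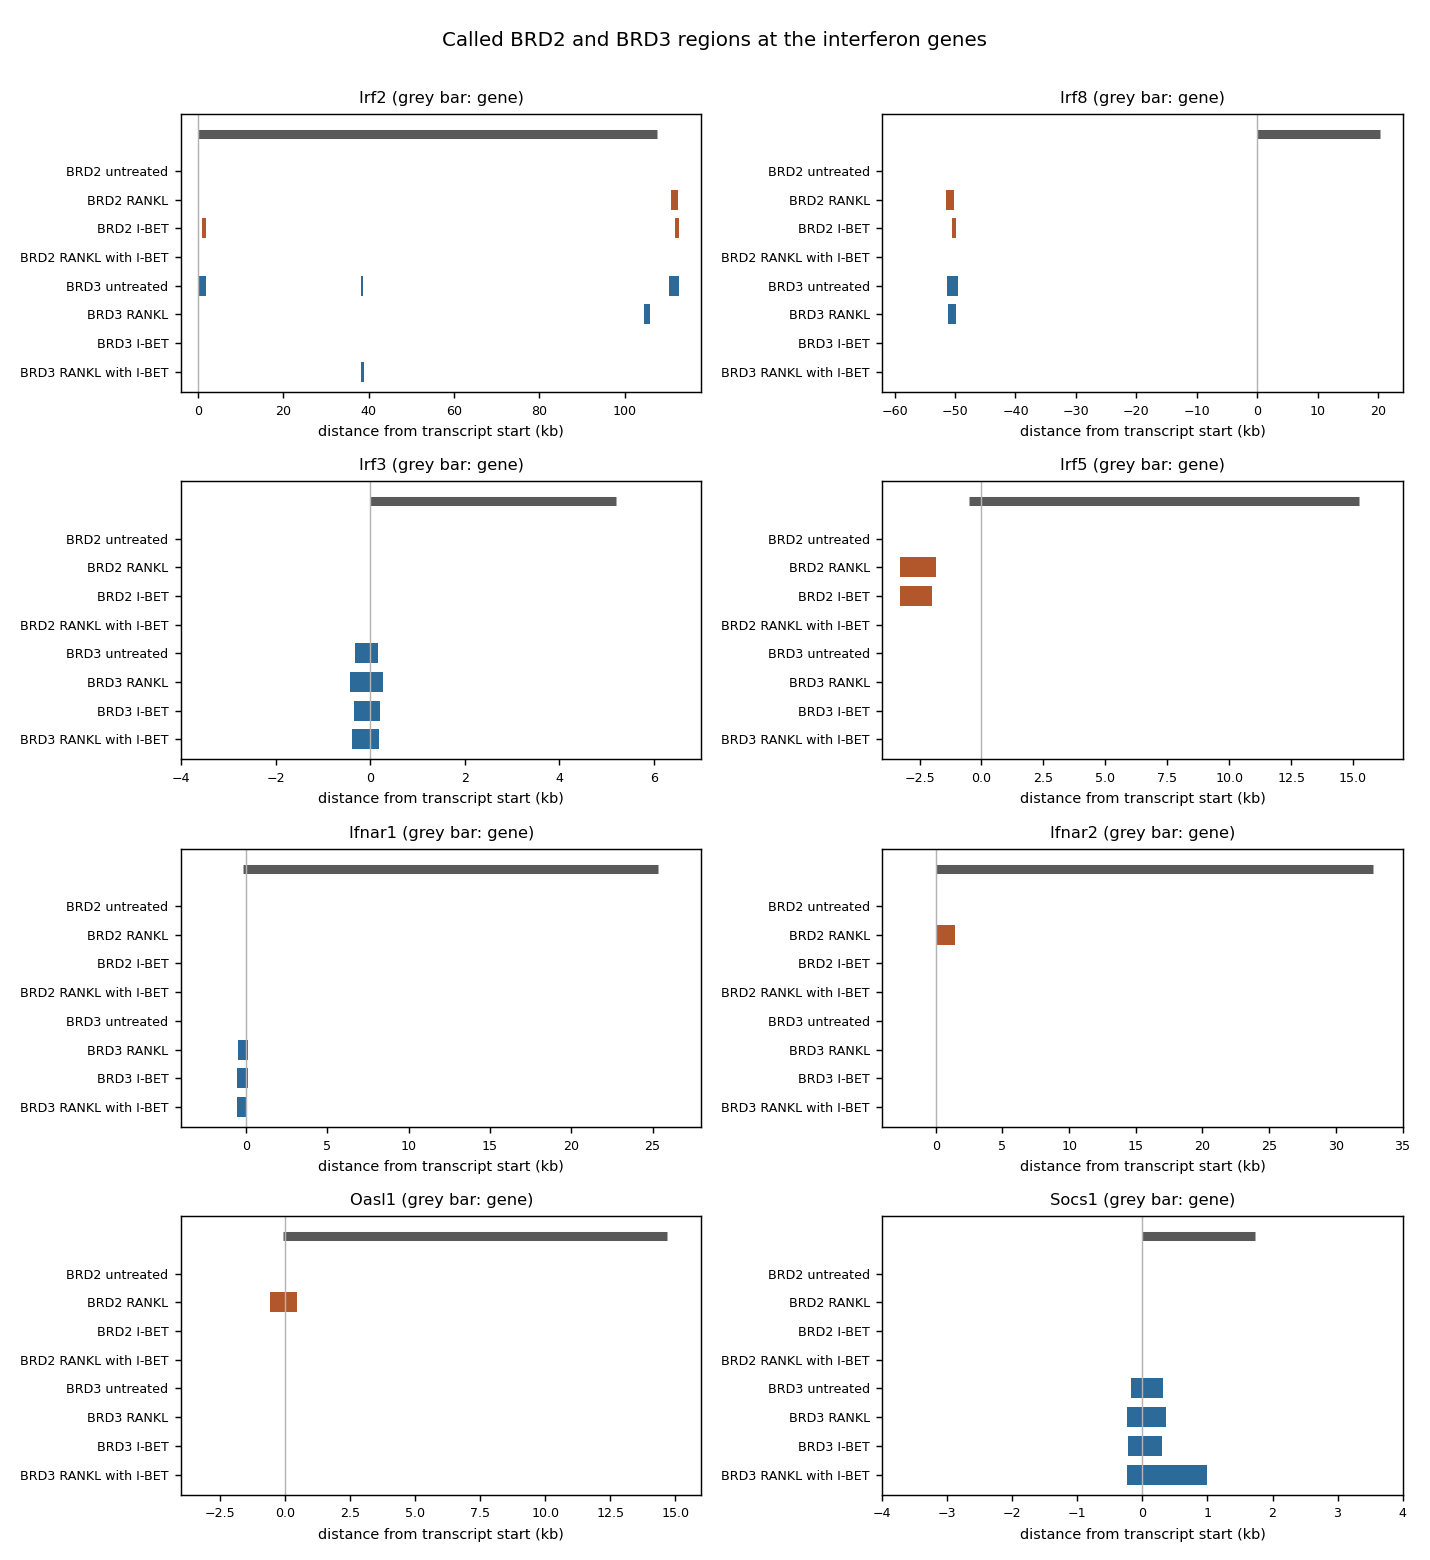
Called regions at 8 genes, by distance from the transcript start (kb, x axis) and peak list (y axis); each bar is 1 region drawn at its true width, BRD2 in brown and BRD3 in blue, and the grey bar is the gene. Irf3 and Socs1 show a BRD3 bar over the start in all 4 treatments, Irf2 shows bars at 4 places, and the Irf8 bars lie about 50 kb upstream.

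Irf2 had the most regions of the 9 genes, 8 at 4 places, and was the only one with regions from both antibodies. Irf2 is also the longest of the 9, at 107714 bp against 32807 bp for the next, Ifnar2, so its window had more room for regions. The gene (chromosome 8, 46739745 to 46847458) encodes a factor best known for opposing IRF1 at interferon-responsive promoters. At its start, BRD3 had a region of 1780 bp in untreated cells (46739719 to 46741498), and BRD2 had a region of 948 bp under I-BET that lay within the gene and shared 908 bp with it. Downstream of the gene, BRD3 in untreated cells had a region of 2376 bp (46850153 to 46852528). BRD2 regions at the same place measured 1789 bp under RANKL and 995 bp under I-BET. Inside the gene, a BRD3 region of 615 bp in untreated cells and one of 775 bp with both agents shared 572 bp, with midpoints 38422 bp and 38545 bp from the start. The BRD3 region under RANKL, 1357 bp, lay near the far end (46844268 to 46845624), and no other list had one there.

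For BRD3, the summed width at Irf2 was thus 4771 bp in untreated cells, 1357 bp under RANKL, 0 bp under I-BET and 775 bp with both agents. Irf2 was called in untreated, RANKL and combined lists at different places, so a call in a pair of lists here does not mean a shared region. Under I-BET alone the nearest BRD3 region was 576 kb away. Further out, 38.0 to 45.8 kb beyond the gene, BRD3 had 2 regions in untreated cells (2867 bp and 2096 bp) and 3 under RANKL (2714, 1684 and 1431 bp). BRD2 had 1 of 2001 bp there under RANKL. Neither antibody had one there in the lists with I-BET.

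Irf3 had a narrow BRD3 region over its start in every treatment and no BRD2 region. IRF3 is the factor that starts interferon-beta transcription after nucleic acids are sensed. The BRD3 regions measured 479 bp in untreated cells, 698 bp under RANKL, 546 bp under I-BET and 564 bp with both, and shared 479 bp (chromosome 7, 44997324 to 44997802). The start of Irf3 (44997648) is 9 bp from the record of Bcl2l12, a gene of the opposite strand, and Scaf1 lies within 10 kb as well, so these regions cannot be given to Irf3 alone. Counting each region for the nearest gene only, Irf3 lost all 4 calls.

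Irf5 was called by BRD2 under RANKL (1457 bp) and I-BET (1280 bp), with 1272 bp in common. IRF5 drives inflammatory cytokine genes in macrophages. Both regions lay upstream of the gene (chromosome 6, 29526130 to 29541869), 1328 bp and 1513 bp before its record began, and no BRD3 list had a region within 58 kb. They were above the upper width quartile of their lists (1291 bp and 1266 bp).

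Irf1 and Irf8 had no region in any list under the rule, as did 14911 other protein-coding genes each. IRF1 is an interferon-induced activator (chromosome 11, 53770014 to 53778374), and IRF8 is a lineage factor of monocytes (chromosome 8, 120736358 to 120756694). The nearest region to Irf1 was BRD2 in untreated cells, 62.3 kb upstream. BRD3 regions lay 113 kb away in the 3 treated lists and 744 kb away in untreated cells.

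Upstream of Irf8, 4 lists held a region at 1 place between 49.5 and 50.2 kb before the gene. BRD3 had 1740 bp there in untreated cells and 1320 bp under RANKL, and BRD2 had 1251 bp under RANKL and 615 bp under I-BET. The 4 shared 311 bp (120685871 to 120686181). The nearest protein-coding gene was Cox4i1, 10722 to 11662 bp away. Neither BRD3 list with I-BET had a region there; their nearest to Irf8 were 198 kb away. Distal enhancers of Irf8 are known in myeloid cells, but whether this region acts on Irf8 was not tested.

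Oasl1 had 1 region, BRD2 under RANKL. OASL1 belongs to the 2′-5′ oligoadenylate synthetase family, whose genes are induced by interferon. The region (chromosome 5, 114922672 to 114923693, 1022 bp) covered the start and stood at the 53.9th score percentile of its list. In the other 3 BRD2 lists the nearest region was at least 542 kb away, and in the 4 BRD3 lists it was 72.8 to 72.9 kb away.

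Socs1 had a BRD3 region over its start in all 4 treatments and no BRD2 region. The gene (chromosome 16, 10783808 to 10785536, minus strand) encodes an inhibitor of JAK kinases. Its regions measured 491 bp in untreated cells, 602 bp under RANKL, 523 bp under I-BET and 1238 bp with both agents, and shared 476 bp that hold the overlapping ISRE cores shown above. With both agents the region reached further into the gene and was at the 96.1st width percentile of its list, against at most the 38.9th in the others. The sperm chromatin genes Tnp2, Prm3 and Prm2 have the same regions within 10 kb.

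**Figure D2:**
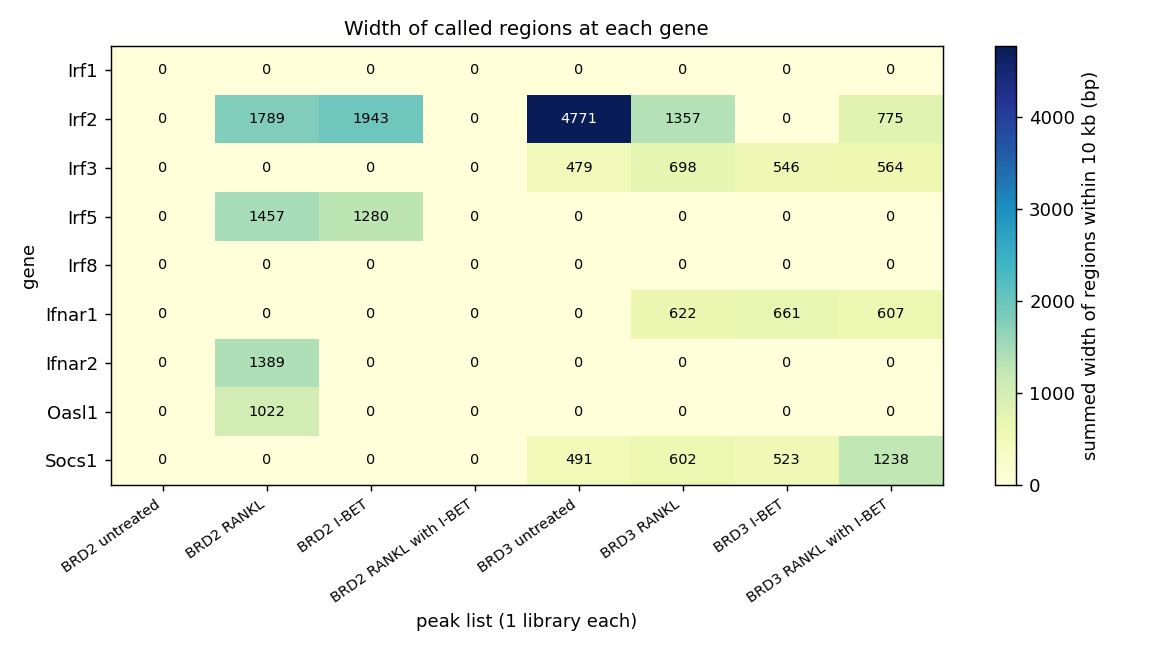
Summed width in bp of the regions within 10 kb of each of the 9 genes (y axis) in each peak list (x axis), 1 library each; darker cells are wider and 0 means no region. The largest value, 4771 bp, is that of Irf2 with BRD3 in untreated cells, and the rows of Irf1 and Irf8 hold only 0.

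By antibody, 3 genes (Irf5, Ifnar2 and Oasl1) had only BRD2 regions, 3 (Irf3, Ifnar1 and Socs1) only BRD3 regions, 1 (Irf2) both and 2 neither. Of all protein-coding genes, 31.9% had a region in any list, 14.5% in any BRD2 list, 26.7% in any BRD3 list, and 5.18% in a BRD2 list and no BRD3 list. Irf3 and Socs1 were in all 4 BRD3 lists, as were 12.1% of all genes. Of the 16 BRD3 regions at the 9 genes, 12 lay over the start of that gene, against 1 of 7 BRD2 regions, that of Oasl1. The 12 lay at the starts of Irf2, Irf3, Ifnar1 and Socs1, each place being counted again in every list that held it. A start was covered at 3 of the 9 genes in each BRD3 list and at 0, 1, 0 and 0 in the BRD2 lists (untreated, RANKL, I-BET, both). Of 17492 protein-coding genes with a known start, 13.2%, 12.5%, 9.3% and 11% were covered in the BRD3 lists and 2%, 5.33%, 3.34% and 0.686% in the BRD2 lists, in the same order. In the full lists the share of regions over a start of any gene, a wider measure, was 53.8% to 67.4% for BRD3 and 46.5% to 57.6% for BRD2.

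None of the 7 BRD2 regions at these genes overlapped a BRD3 region of the same treatment. In the full lists, 45.1% of BRD2 regions under RANKL (exact 95% binomial interval 42.7% to 47.5%) and 20.2% under I-BET (17.8% to 22.7%) overlapped one. Among these genes, only Irf2 under RANKL had regions of both antibodies in the same treatment, so no such overlap was possible elsewhere. At Irf2, regions of the antibodies met only across treatments, BRD3 in untreated cells against BRD2 under RANKL or I-BET. The interval covers counting error only.

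**Figure D3:**
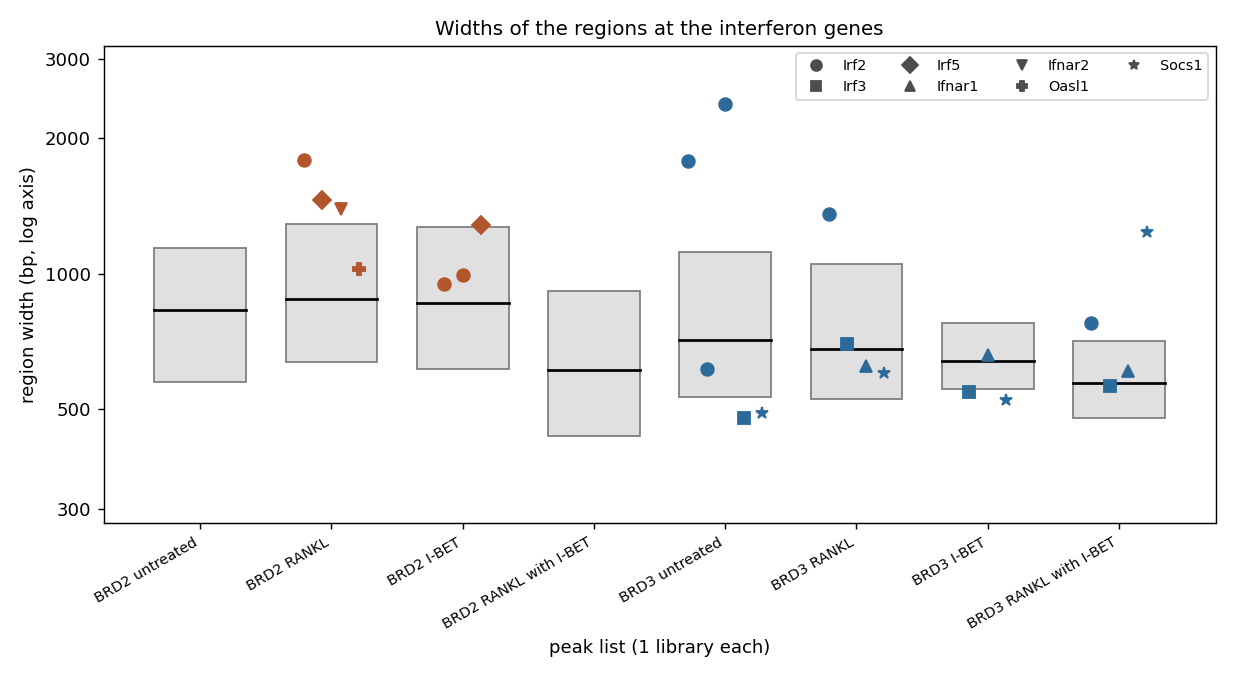
Width in bp (log y axis) of each region at the 9 genes, by peak list (x axis); symbols are genes, grey boxes span the lower to the upper quartile of all regions of the list and the black line is the median. The Irf3 regions lie between 479 and 698 bp in the 4 BRD3 lists, and the Irf2 regions in untreated cells reach 2376 bp.

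The BRD2 regions measured 948 to 1789 bp (median 1280 bp) and the BRD3 regions 479 to 2376 bp (median 618.5 bp). All 7 BRD2 regions were wider than the median of their list, 877 bp under RANKL and 858 bp under I-BET. For BRD3 in untreated cells the list median was 712 bp, and of the 5 regions at these genes only those at the start and downstream of Irf2 were wider.

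RANKL against untreated cells asks how BET binding differs once the cytokine is given. For BRD2, 4 of 9 genes had a region under RANKL (Irf2, Irf5, Ifnar2 and Oasl1) and 0 in untreated cells. Over all genes 10.5% were called under RANKL, 3.64% in untreated cells, and 8.37% in the RANKL list and not the untreated one; the reverse held for 1.52% and for none of the 9. With no untreated region at these genes, none of the 4 RANKL regions could overlap one, while 19.1% (17.2% to 21.0%) of the list did. For BRD3, 4 genes were called under RANKL and 3 in untreated cells (21.9% and 21.6% of all genes). Irf2, Irf3 and Socs1 were in both lists, and Ifnar1 was in the RANKL list alone, a pattern of 4.33% of all genes; the reverse held for 4.06% and for none of the 9. The BRD2 count of 4 was 2 when the window reached 1 kb beyond the gene, and 0 when each BRD2 list was limited to its 245 highest-scoring regions, the length of the shortest. The BRD3 count of 1 became 0 with the list limited to the 50% highest-scoring regions or to equal length.

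I-BET alone against untreated cells asks how it differs once the inhibitor is given. For BRD3, 3 genes were called under I-BET, as in untreated cells, against 15.1% of all genes. Irf3 and Socs1 were in both, Irf2 was in the untreated list alone (8.2% of all genes) and Ifnar1 in the I-BET list alone (1.67%). For BRD2, Irf2 and Irf5 were called under I-BET and none in untreated cells (6.41% of all genes were called under I-BET, 4.6% there but not in the untreated list, and 1.82% the other way round). Within 1 kb of the gene the BRD2 count under I-BET was 1, Irf2.

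With I-BET added to RANKL, most genes with a BRD2 region under RANKL were without one, and most with a BRD3 region still had one. This held over all genes as well as at the 9. All 4 genes with a BRD2 region under RANKL were without one when I-BET was added. Over all genes, 2297 had a BRD2 region under RANKL, and 2059 of these were without one with both agents. That pattern held for 9.41% of all genes and the reverse for 0.507%. The list with both agents had no BRD2 region at the 9 genes, so none of the 4 regions under RANKL could overlap one. In the full RANKL list 9.2% (7.9% to 10.7%) did. The BRD2 list with both agents called 1.59% of all genes and none of the 9. The count of 4 was 2 with a window of 1 kb and 0 in lists of equal length, 245 regions each. All 4 genes with a BRD3 region under RANKL (Irf2, Irf3, Ifnar1 and Socs1) had one with both agents, where 18.4% of all genes were called. Over all genes, 4783 had a BRD3 region under RANKL, and 1177 of these were without one with both agents. Called under RANKL and not with both were thus 5.38% of all genes, and 1.95% with both and not under RANKL. At Irf3, Ifnar1 and Socs1 the BRD3 regions overlapped, while those at Irf2 lay at different places in the gene. In the full list 64.4% (62.9% to 65.9%) of RANKL regions overlapped one. Limited to the 50% highest-scoring regions, 1 gene had a BRD3 region under RANKL and not with both.

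Against I-BET alone, the BRD3 list with both agents again held Irf3, Ifnar1 and Socs1, with overlapping regions. Irf2 had a BRD3 region with both agents and none under I-BET, as did 4.13% of all genes, while 0.763% had the reverse. In lists of equal length that count was 0. For BRD2, Irf2 and Irf5 were called under I-BET and not with both, as were 5.4% of all genes, and 0.58% were called with both and not under I-BET.

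**Figure D4:**
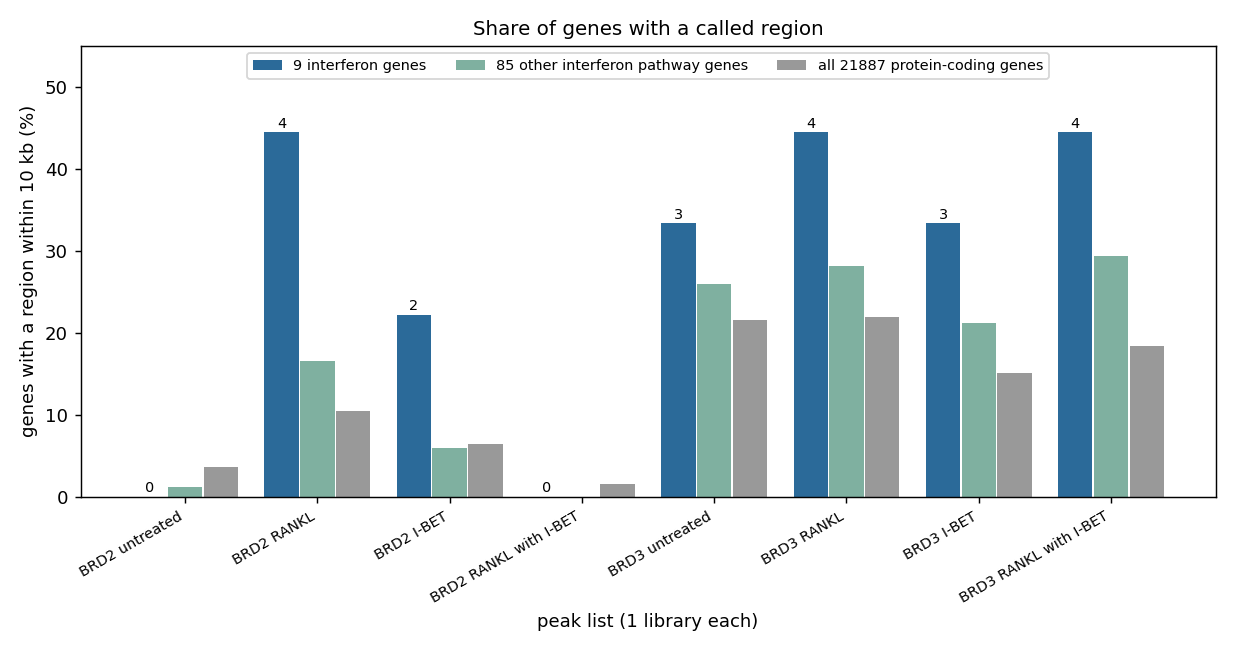
Percent of genes with a region within 10 kb (y axis) in each peak list (x axis, 1 library each) for the 9 genes (blue, count above the bar), 85 other interferon pathway genes (green) and all 21887 protein-coding genes (grey). The 9 genes reach 4 of 9 in BRD2 under RANKL and 0 in BRD2 from untreated cells and with both agents.

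Other genes of the interferon system were taken from 5 lists with 94 genes matched, 85 of them beyond the 9. Mx1 and Mx2 had no protein-coding match. Of the 85, 33 had a region in any list, which is 38.8%, against 31.9% of all genes. In BRD2 lists 1 of the 85 was called in untreated cells (Stat2, by a region 9922 bp outside the gene that also lies near Il23a), 14 under RANKL, 5 under I-BET and 0 with both, against the 3.64%, 10.5%, 6.41% and 1.59% of all genes. In BRD3 lists 22, 24, 18 and 25 were called, which is 25.9%, 28.2%, 21.2% and 29.4%, against 21.6%, 21.9%, 15.1% and 18.4% of all genes.

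Of 41 interferon-stimulated genes, 11 had a region within 10 kb in any list, which is 26.8%, against 31.9% of all genes. BRD2 under RANKL called 7 (Oasl1, Bst2, Ifi35, Irgm1, Trim25, Parp9 and Dtx3l), which is 17.1% against 10.5% of all genes, and the other 3 BRD2 lists called 0. The BRD3 lists called 5, 6, 4 and 7 (12.2%, 14.6%, 9.76% and 17.1%), each below the share of all genes in that list (21.6%, 21.9%, 15.1% and 18.4%). Parp9 and Dtx3l share 1 region of 1296 bp. Besides Oasl1, a region of 981 bp covered the start of Trim25, which encodes a ubiquitin ligase of RIG-I signalling. That region also lay within 10 kb of Coil. The Irgm1 region of 1035 bp lay 188 bp outside that gene. The Bst2 region of 370 bp lay 108 bp outside Bst2 and within 10 kb of Mvb12a. In BRD3, Samhd1, a nucleotide hydrolase that restricts viruses, had a region over its start in all 4 lists, 689 to 768 bp wide. The BRD3 regions at Bst2 lay 5107 to 5169 bp from the gene, within 10 kb of Mvb12a too.

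Of 15 sensor and induction genes, 0, 2, 2 and 0 were called in the BRD2 lists and 5, 7, 6 and 7 in the BRD3 lists (untreated, RANKL, I-BET, both). The BRD3 counts are 33.3%, 46.7%, 40% and 46.7%, against 21.6%, 21.9%, 15.1% and 18.4% of all genes. For BRD2, each count of 2 is 13.3%, against 10.5% of all genes under RANKL and 6.41% under I-BET. Of the 12 receptor and JAK-STAT genes beyond the 9, 1, 2, 1 and 0 were called in the BRD2 lists and 4, 6, 3 and 5 in the BRD3 lists. The BRD3 counts are 33.3%, 50%, 25% and 41.7%, and the first 3 BRD2 counts 8.33%, 16.7% and 8.33%. Over all genes, too, more had a region in any BRD3 list (26.7%) than in any BRD2 list (14.5%). In any of the 8 lists, 53.3% of the 15 and 58.3% of the 12 had a region, against 31.9% of all genes. So had 42.9% of 7 other genes on the interferon regulatory factor list and 45.5% of 11 other negative regulators. Tbk1, the kinase that activates IRF3, had a BRD3 region over its start in all 4 treatments (507 to 678 bp), and so had the adaptor gene Traf3 (533 to 812 bp) and the DNA sensor gene Cgas (586 to 956 bp). Cgas also had a BRD2 region over its start under RANKL, 958 bp. The Tbk1 regions lie within 10 kb of Xpot as well, and the Cgas regions within 10 kb of Mto1. Jak2 had a BRD3 region at most 18 bp from the gene in all 4, 481 to 692 bp, and Stat5b had one inside the gene in all 4, 525 to 681 bp. Stat2 had only BRD2 regions, in untreated cells and under RANKL. Stat6 was called by BRD2 under RANKL and I-BET and by BRD3 in untreated cells and under RANKL, by regions at least 5431 bp outside the gene that also lie near Nab2 and Nemp1. Tlr7, the sensor of single-stranded RNA, had regions inside the gene under RANKL with BRD2 (1888 bp) and BRD3 (1412 bp) and under I-BET with BRD2 (1993 bp). Among regulators, Pias1 had a BRD3 region over its start in untreated cells (699 bp), under RANKL (472 bp) and with both (475 bp). The IRF2 partner gene Irf2bp2 had one over its start in all 4 lists, 2545 bp in untreated cells, 2308 bp under RANKL, 1146 bp under I-BET and 1063 bp with both.

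Genes with the same calls over the 8 lists were many for Irf3 and Socs1 (1801 each, including each other) and fewer for Ifnar1 (164) and Irf2 (21). By the smallest mean absolute difference in log2 summed width over the lists that call them, the closest to Irf3 on other chromosomes were Gnpda2 (0.03), Isoc1 (0.04) and Ecsit (0.05), over 4 lists. For Socs1 they were B9d2 and Tgfb1, which share a region (0.09), and Mpp4 (0.13). Ifnar1 was closest to Atp6v1f, Atp6v1fnb and Flnc, which share a region (0.05, over 3 lists), and Irf2 to Cops3 (0.64), Flcn (0.73) and Plekho2 (0.90), over 5 lists.

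Base composition was read from the same promoter windows. Windows whose start was in a BRD3 region of untreated cells had a median GC content of 64.0% and 26 CpG, against 51.7% and 6 for the others. Of the genes covered there, Irf3 had 58.3% and 18 CpG, Socs1 63.3% and 18, and Irf2 62.7% and 19. Ifnar1, whose start was in a BRD3 region of every list except that of untreated cells, had 68.3% and 26. For BRD2 under RANKL the covered windows had a median of 62.0% and 24 CpG. The 3 genes with BRD2 regions alone spread around that, with 53.0% and 8 CpG for Oasl1, 57.0% and 18 for Ifnar2 and 74.7% and 35 for Irf5, of which only the Oasl1 start was covered. The windows at the first starts of Irf1 (69.3%, 32 CpG) and Irf8 (70.0%, 38 CpG) had values above the median of the covered windows but no region.

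As a check of cell type, 8 of 10 macrophage marker genes had a region within 10 kb in any list, all but Itgam and Adgre1, against 31.9% of all genes. Of other markers, 1 of 5 for T cells (Lck), and 0 of 4 each for B cells, fibroblasts and epithelium had one. By list, 4, 5, 4 and 1 of the 10 macrophage markers were called by BRD2 (untreated, RANKL, I-BET, both). BRD3 called 7, 7, 3 and 3, so fewer were called in its lists with I-BET. Over all genes the shares in these lists were 3.64%, 10.5%, 6.41% and 1.59% for BRD2 and 21.6%, 21.9%, 15.1% and 18.4% for BRD3. The marker sets are small. The lists held 245 to 1716 regions for BRD2 and 2232 to 3840 for BRD3, and over all genes the number called followed the number of regions within each antibody. For the 9 genes it did not in BRD3, where 3668 regions in untreated cells called 3 and 2842 with both agents called 4. The part of list length in the differences between treatments was not tested.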

How the data were processed

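The data were 8 peak lists, 1 per antibody and treatment. The submitters' processing notes name the build mm10 (GRCm38), MACS2 2.1.1.20160309, FastQC and Bowtie2 2.3.4.1; their settings and use of the inputs are not given in the sources used here. Each line of the deposited lists holds a position, the names of the joined peaks and a score. Per the peak names, all 23 regions at the 9 genes join 3 peaks, from 3 peak sets. The deposited score is the authors' own value; it followed width little (Spearman rho -0.08 to 0.03 across regions) and was alike in neighbouring regions (0.25 to 0.61). Positions are counted from 1.

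Gene positions, transcript starts and promoter sequences came from RefSeq tables of GRCm38.p6, the build of the lists; exons and introns were not used. Starts were given for 17492 of 21887 protein-coding genes. Overlaps were computed with Python 3.11.15 and pandas 2.3.3 and were tested on simulated data. Intervals are exact (Clopper-Pearson, 95%). Without replicates no test was run. The genes and lists were chosen with earlier results of these data known. All 9 genes are named; from each pathway list up to 6 genes called in most lists are named, and for genes called in at least 3 lists up to 3 of identical pattern. Other genes (such as Dtx3l, Mvb12a, Il23a, Cox4i1 and Bcl2l12) are named because they were in a count of few or share or neighbour a region, after their values were seen. Alternatives were a 1 kb window, midpoints, score limits, nearest genes and stricter overlap. The values of 1 pathway gene are not reported here.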

Additional observations from a re-analysis of the deposited data

How the results depend on the processing

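Of 20 calls of a gene in a list, all 20 were kept when the midpoint of the region had to lie in the window, 17 with a window of 1 kb, 16 when a region counted for its nearest gene only, 12 in lists of equal length by score and 10 in the 50% highest-scoring regions. With 1 kb, BRD2 called 2 genes under RANKL, 2 under RANKL and not in untreated cells, 2 under RANKL and not with both agents, 1 under I-BET and 1 in the I-BET list and not the untreated one. In lists of equal length, BRD2 under RANKL called 0, hence 0 not in untreated cells and 0 not with both, because that list was shortened from 1716 to 245 regions. BRD3 under RANKL then called 1 gene, 0 of them not in untreated cells, and 0 were called with both and not under I-BET. In the 50% highest-scoring regions BRD3 called 1 gene under RANKL, 0 under I-BET and 1 with both agents. The counts of genes called under RANKL or I-BET and not in untreated cells were then 0 and 0, and 1 gene was called under RANKL and not with both. These limits leave fewer regions by construction. The 8 counts of overlapping regions were the same when 50% of the shorter region had to overlap. When 50% of each region had to, 2 of 4 BRD3 regions under RANKL overlapped one with both agents and 2 of 4 with both agents overlapped one under I-BET, in place of 3 each, and the other 6 counts were the same. The BRD2 overlap counts could not change, since a list of each pair had no region at these genes. No paired analysis was possible because each group has 1 library, and for the same reason no replicate could be left out. Depth is unknown, so the lists cannot tell a missing region from one below the calling threshold.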
